A study of Mus musculus with 12 samples.

Results

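Lipid droplet coat and lipase genes were followed in 12 liver samples from mice. The set holds 10 genes: the perilipins Plin2, Plin3, Plin4 and Plin5, the CIDE genes Cidea, Cideb and Cidec, the lipase genes Pnpla2 and Pnpla3, and the lipase inhibitor gene G0s2. Each gene was represented by a probe set that the platform annotation assigns to it alone, taking the brightest over 12 arrays where there were several. In this way 9 of the 10 genes had a value, among 22180 genes in all. Cideb shares its probe set with another gene and was not analysed here.

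All mice were 2 months old males of the C57Bl/6N strain, as labelled, and carried floxed p53 alleles (p53 fl/fl). The labels also name the strain in another way, as C57BL/6 Trp53tm1Brn/J. Equal titers of Adeno-Cre, an adenovirus that expresses Cre recombinase, or of Adeno-GFP, which expresses green fluorescent protein, were given through the tail vein, and 3 days later the mice either were fasted for 24 h or had free access to chow. The groups were Adeno-Cre fasted, Adeno-GFP fasted, Adeno-Cre fed and Adeno-GFP fed livers, with 3 arrays each. Adeno-GFP mice carry the same floxed alleles without Cre, and every mouse received virus, so the 2 injections differ in viral cargo as well as in p53. The Cre virus is not limited to hepatocytes by anything the labels state. No probe set names Trp53 alone, so the deletion could not be checked on these arrays. All values are deposited log2 levels per probe set, array medians lay between 6.26 and 6.33, and the small number of arrays limits the precision. The labels do not describe how the 3 samples of a group were obtained beyond coming from mice, and p-values measure the spread between them. Whether each sample came from a separate mouse is not stated, and a liver below means the sample on an array.

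Triglyceride in hepatocytes is stored in droplets enclosed by a phospholipid layer with perilipins on its surface, which control the access of lipases. CIDE proteins gather at contacts between droplets and pass lipid from the smaller to the larger, so that droplets grow. Adipose triglyceride lipase, the product of Pnpla2, cleaves the initial fatty acid from stored triglyceride, and G0s2 protein blocks it. In a fasting liver, fatty acids arriving from adipose tissue are stored in droplets and burned in mitochondria.

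With fasting, 6 of the 9 measured genes rose when the fasted minus fed difference was averaged over both injections, and 0 fell. A gene was called where its Benjamini-Hochberg adjusted p in limma, over all 22180 genes, was under 0.05. Of all genes tested, 4.02% were called higher by the same rule. Cidec, G0s2, Pnpla2, Plin4, Plin5 and Plin2 made up the 6, while Plin3, Cidea and Pnpla3 were not called. The median log2 difference of the 9 genes was 0.40, against 0.01 for all genes. For 5 of the 9 (Plin2, Plin4, Plin5, Cidec and Pnpla2) all 6 fasted livers lay above all 6 fed livers, which held for 2.21% of all genes. These were bulk liver samples, in which fewer cells of a type and less RNA per cell cannot be told apart.

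**Figure D1:**
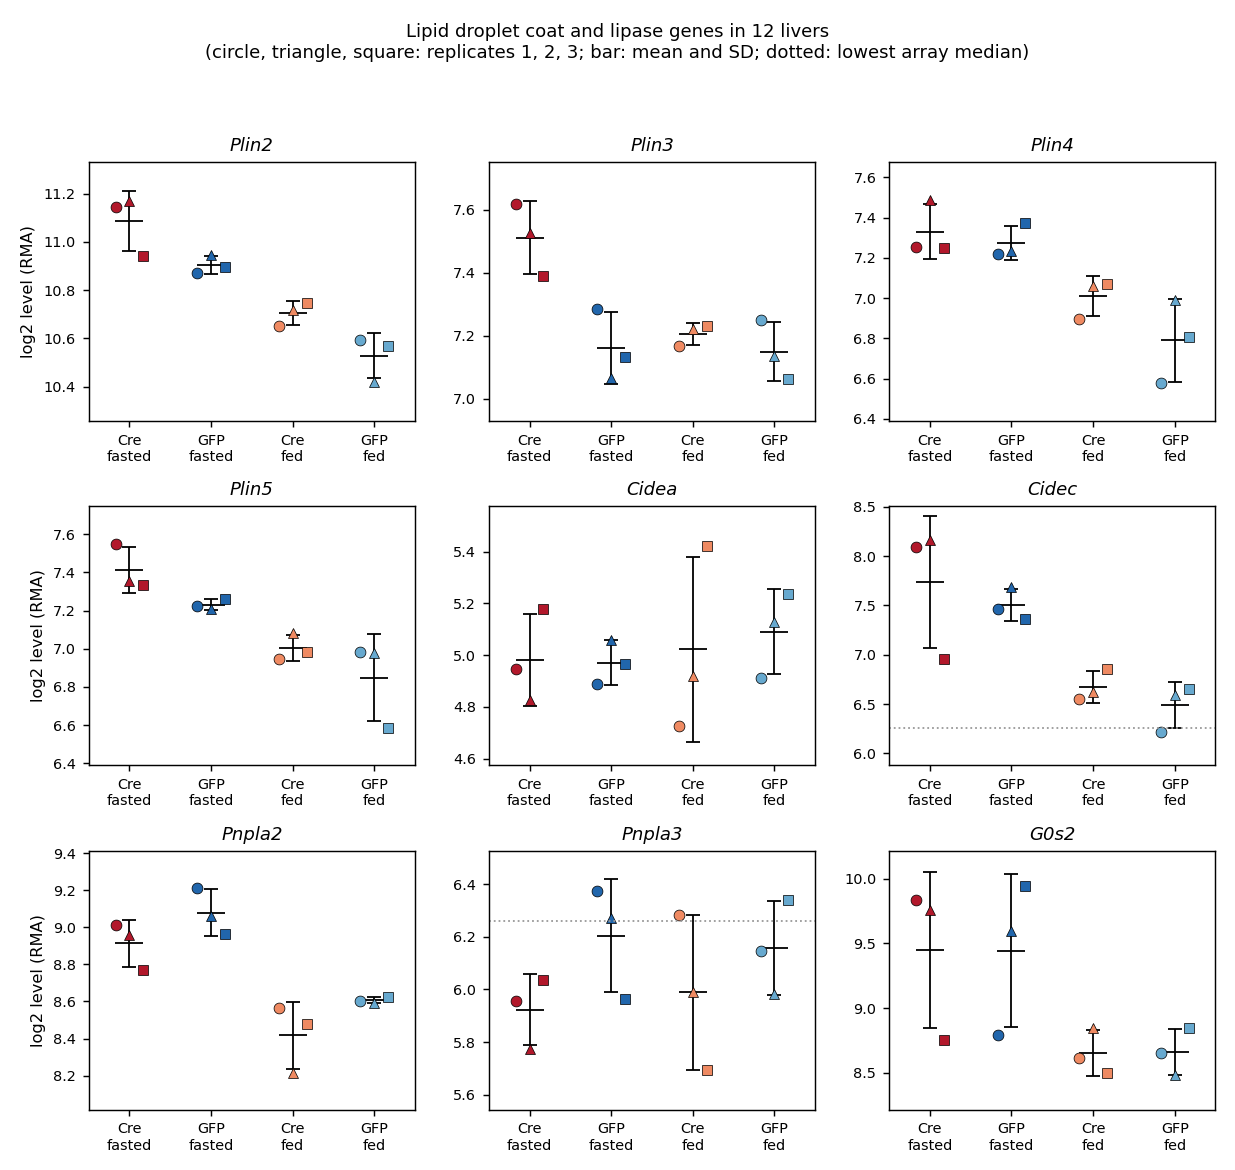
Deposited log2 level of each of the 9 measured genes (vertical axis, own scale per panel) in the 4 groups (horizontal axis), with a symbol per array, bars at the mean ± SD of 3 arrays, and a dotted line at the lowest array median where it falls in the panel. Both fasted groups sit wholly above both fed groups for Plin2, Plin4, Plin5, Cidec and Pnpla2, and Adeno-Cre fasted livers stand highest for Plin3.

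Among the coat genes, Plin2 encodes the perilipin that is always bound to droplets in hepatocytes. Its promoter is shown because Plin2 rose and its window holds 1 of the motifs searched. The sequence comes from RefSeq on GRCm38.p6, chr4:86670010-86670309, minus strand, reading 5′ to 3′ from 250 bases before the start site to 50 bases after it, and capitals mark an E-box, CACGTG, at bases 247 to 252 of the window.
Plin2: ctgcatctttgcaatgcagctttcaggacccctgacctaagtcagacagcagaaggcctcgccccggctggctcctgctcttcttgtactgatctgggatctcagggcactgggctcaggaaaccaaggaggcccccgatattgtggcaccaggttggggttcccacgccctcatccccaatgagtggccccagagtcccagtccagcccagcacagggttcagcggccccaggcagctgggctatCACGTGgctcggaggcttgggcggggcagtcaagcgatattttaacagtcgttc

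An E-box is a palindrome, so the same match reads on both strands, and 7.15% of 32851 promoter windows of this length hold it. Plin2 (probe set 17426981) had log2 levels of 11.15, 11.17 and 10.94 in Adeno-Cre fasted livers and 10.87, 10.95 and 10.90 in Adeno-GFP fasted livers. It had 10.65, 10.72 and 10.75 in Adeno-Cre fed livers and 10.59, 10.42 and 10.57 in Adeno-GFP fed livers. The lowest fasted liver stood above the highest fed liver. Averaged over injections, the log2 level rose by 0.38 with fasting (SE 0.06, limma adjusted p = 0.00182), a 1.3-fold difference.

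Plin4 and Plin5 are neighbours on chromosome 17 in the RefSeq gene order of protein-coding genes, and Plin3 lies 9 genes on from Plin4. Plin5 encodes the perilipin of tissues that burn fat, which holds back adipose triglyceride lipase and ties droplets to mitochondria. Plin4 encodes a perilipin that moves between cytosol and droplets and is best known from adipocytes and muscle. Plin5 (probe set 17346136) had log2 levels of 7.55, 7.35 and 7.34 in Adeno-Cre fasted and 7.22, 7.21 and 7.26 in Adeno-GFP fasted livers. Its levels were 6.94, 7.08 and 6.99 in Adeno-Cre fed and 6.99, 6.98 and 6.58 in Adeno-GFP fed livers. Fasted and fed livers did not overlap, and the widest scatter came from Adeno-GFP fed replicate 3, the lowest array. The log2 level rose by 0.40 with fasting (SE 0.08, limma adjusted p = 0.00726). Plin4 (probe set 17346125) had 7.26, 7.49 and 7.25 in Adeno-Cre fasted and 7.22, 7.23 and 7.37 in Adeno-GFP fasted livers on the log2 scale. Fed livers had log2 levels of 6.90, 7.06 and 7.07 after Adeno-Cre and 6.58, 6.99 and 6.80 after Adeno-GFP. Again the groups of fasted and fed livers were apart, and the log2 difference was 0.40 (SE 0.08, limma adjusted p = 0.00774).

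Plin3, also called TIP47, encodes an exchangeable perilipin that coats small, newly made droplets. Its probe set (17346216) had log2 levels of 7.62, 7.53 and 7.39 in Adeno-Cre fasted and 7.29, 7.07 and 7.13 in Adeno-GFP fasted livers. In fed livers it had 7.17, 7.22 and 7.23 after Adeno-Cre and 7.25, 7.14 and 7.06 after Adeno-GFP. The Adeno-Cre fasted livers were the highest group, above every other array, while the other 3 groups overlapped. Averaged over injections, its log2 difference with fasting was 0.16 (95% interval 0.02 to 0.29, limma adjusted p = 0.152).

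Cidec, also called Fsp27, encodes the CIDE protein of large droplets in adipocytes and in fatty liver. It had the largest fasting difference of the 9 genes, and a promoter window is shown for that reason. Of its RefSeq start sites, the window printed is the one that held a motif match. The window is chr6:113435711-113436010, minus strand, from RefSeq on GRCm38.p6, over the same bases relative to the start site, and capitals mark a match to the decamer unit of the p53 response element, AAACATGCCT, at bases 84 to 93.
Cidec: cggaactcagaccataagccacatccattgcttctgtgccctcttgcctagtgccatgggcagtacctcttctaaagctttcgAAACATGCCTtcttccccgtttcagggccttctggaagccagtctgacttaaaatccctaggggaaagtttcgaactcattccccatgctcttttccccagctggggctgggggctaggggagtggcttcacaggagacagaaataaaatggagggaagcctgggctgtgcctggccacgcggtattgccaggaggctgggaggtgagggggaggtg

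That decamer was found in 8.36% of the 32851 windows, and it reads on both strands. The match is a description of the letters and not evidence of binding, and a second RefSeq start site of Cidec, at chr6:113434715-113435014, held no match to any motif searched. Cidec (probe set 17469754) had log2 levels of 8.09, 8.16 and 6.96 in Adeno-Cre fasted livers and 7.47, 7.69 and 7.36 in Adeno-GFP fasted livers. Fed livers had 6.55, 6.62 and 6.86 after Adeno-Cre and 6.22, 6.60 and 6.65 after Adeno-GFP, all below the lowest fasted liver. Within the Adeno-Cre fasted group, replicate 3 was close to the fed range and the other 2 were the highest of all arrays. The fasting difference averaged over injections was 1.04 on the log2 scale (SE 0.18, 95% interval 0.65 to 1.43, limma adjusted p = 0.00389), a 2.05-fold difference. Of all genes, 0.126% had a larger log2 difference.

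Cidea, the CIDE gene of brown adipocytes that is also found in fatty liver, was dim. Its probe set (17351457) lay between 4.83 and 5.18 in the 6 fasted livers and between 4.73 and 5.42 in the 6 fed livers on the log2 scale. That was under the lowest array median on 12 of 12 arrays, and a level above background was not established. The log2 difference with fasting was -0.08 (95% interval -0.32 to 0.16, limma adjusted p = 0.749).

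Of the lipase genes, Pnpla2 rose with fasting and Pnpla3 was not called. Pnpla2 (probe set 17484909) had log2 levels of 9.01, 8.96 and 8.77 in Adeno-Cre fasted and 9.21, 9.06 and 8.96 in Adeno-GFP fasted livers. Its fed levels were 8.56, 8.22 and 8.48 after Adeno-Cre and 8.60, 8.59 and 8.62 after Adeno-GFP. All fasted livers exceeded all fed livers, and in each diet the mean after Adeno-GFP was the higher of the 2. The log2 level rose by 0.48 (SE 0.07, limma adjusted p = 0.00173), a 1.4-fold difference. Pnpla3 encodes a droplet-bound hydrolase known as a SREBP1c target, and its human form is known for a variant linked to fatty liver. Its probe set (17313677) lay between 5.77 and 6.38 in fasted and between 5.69 and 6.34 in fed livers on the log2 scale, with 8 of 12 arrays under the lowest array median. Its log2 difference with fasting was -0.01 (95% interval -0.25 to 0.23, limma adjusted p = 0.974).

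G0s2, the inhibitor of adipose triglyceride lipase, varied widely between fasted livers of both injections. Its probe set (17220941) had log2 levels of 9.83, 9.76 and 8.75 in Adeno-Cre fasted and 8.79, 9.60 and 9.95 in Adeno-GFP fasted livers. Fed livers had 8.61, 8.85 and 8.50 after Adeno-Cre and 8.65, 8.48 and 8.84 after Adeno-GFP. Of the 6 fasted livers, 4 exceeded every fed liver, and Adeno-Cre fasted replicate 3 and Adeno-GFP fasted replicate 1 lay within the fed range. The averaged log2 difference was 0.79 (SE 0.21, limma adjusted p = 0.0384), a 1.73-fold difference. This call was lost without any 1 of the other 10 arrays, where adjusted p was 0.0520 to 0.0907, while leaving out the low array of either fasted group kept it (adjusted p = 0.00692 for the Adeno-Cre array and 0.00983 for the Adeno-GFP array). G0s2 has another probe set (17231248), and the largest gap between them on any array was 0.251 on the log2 scale. That probe set gave a log2 difference of 0.65 with an unadjusted limma p of 0.00773, against an unadjusted limma p of 0.00269 for the probe set used. No adjusted p is given here for the other probe set, so it adds no call.

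Within each injection fewer genes were called. After Adeno-Cre, 3 of the 9 genes rose with fasting, where 1.5% of all genes were called higher: Cidec by 1.06 (limma adjusted p = 0.0487), Pnpla2 by 0.50 (adjusted p = 0.0269) and Plin2 by 0.38 (adjusted p = 0.0289) on the log2 scale. After Adeno-GFP, 3 of the 9 rose, where 1.2% of all genes were called higher: Plin4 by 0.48 (limma adjusted p = 0.0359), Pnpla2 by 0.47 (adjusted p = 0.0293) and Plin2 by 0.38 (adjusted p = 0.0286) on the log2 scale. Cidec had a log2 difference of 1.02 after Adeno-GFP that missed the threshold (limma adjusted p = 0.0534). Fasted and fed livers did not overlap for 6 of the 9 genes after Adeno-Cre (11.3% of all genes) and for 5 of the 9 after Adeno-GFP (11.1% of all genes). The sixth gene was Plin3, with log2 differences of 0.30 after Adeno-Cre (adjusted p = 0.0947) and 0.01 after Adeno-GFP (adjusted p = 0.972). These calls rested on few arrays. Leaving out 1 array at a time, the called genes numbered between 0 and 4 after either injection. The Cidec call after Adeno-Cre was kept in the absence of Adeno-Cre fasted replicate 3 (log2 difference 1.45, adjusted p = 0.000872) and lost in the absence of each of the other 11 (adjusted p 0.0569 to 0.177). The Plin2 call was lost after Adeno-Cre in the absence of any of 5 Adeno-Cre arrays, all but fasted replicate 3 (adjusted p 0.0708 to 0.116), and after Adeno-GFP in the absence of any of the 6 Adeno-GFP arrays (adjusted p 0.0582 to 0.126). The Pnpla2 call was lost after Adeno-Cre in the absence of fasted replicate 1 or 2 or fed replicate 2 or 3 of that injection (adjusted p 0.0635 to 0.110), and after Adeno-GFP in the absence of any of 5 of its arrays, all but fasted replicate 3 (adjusted p 0.0683 to 0.107). The Plin4 call after Adeno-GFP was lost in the absence of any of 6 arrays, namely the 3 fasted ones and fed replicates 1 and 3 of that injection and Adeno-Cre fed replicate 2 (adjusted p 0.0509 to 0.125). By contrast, the calls averaged over injections of Plin2, Plin4, Plin5, Cidec and Pnpla2 were kept in the absence of each of the 12 arrays, with the highest adjusted p at 0.0237.

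**Figure D2:**
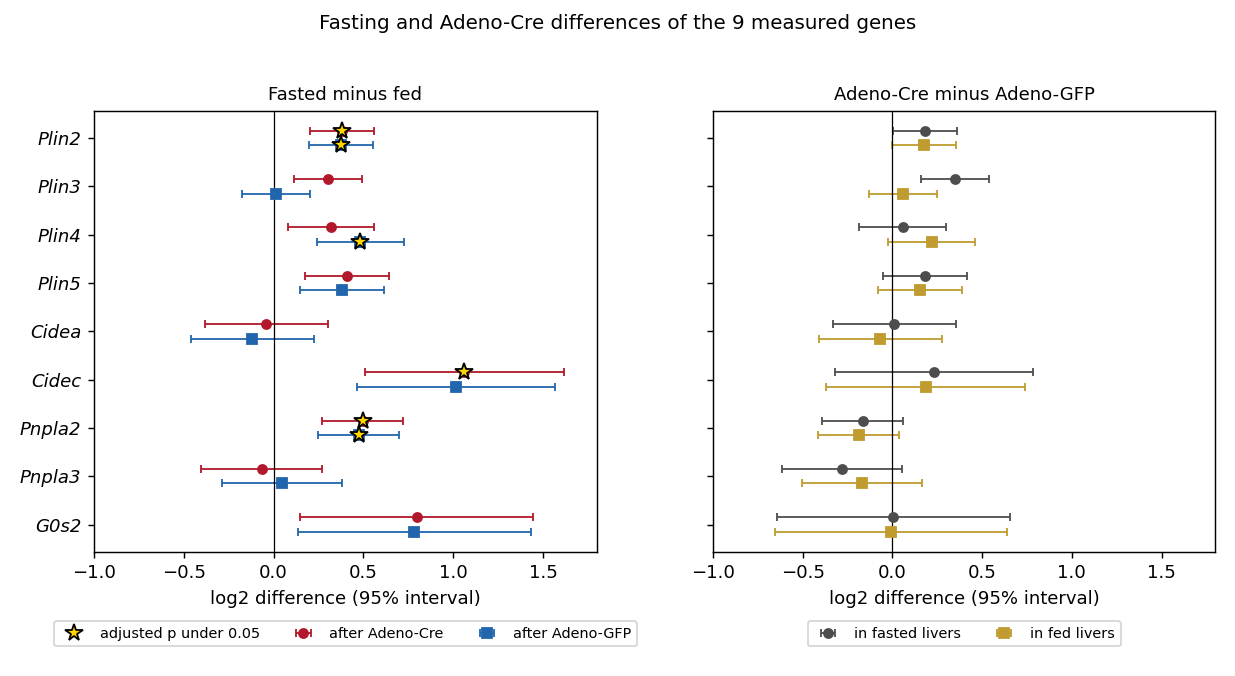
Log2 difference with its 95% interval (horizontal axis) for the 9 measured genes (vertical axis), fasted minus fed after each injection on the left and Adeno-Cre minus Adeno-GFP in each diet on the right, with a star at an adjusted p under 0.05. On the left, Cidec lies near 1 after both injections and Plin2 and Pnpla2 carry a star after both; on the right, no gene carries a star.

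The difference between the fasting responses of the 2 injections was tested as an interaction. By limma 0 of the 9 genes passed, where 0.00451% of all genes passed, and 1 of the 9 had an unadjusted p under 0.05, as did 7.56% of all genes. Plin3 had the lowest p, with a log2 difference between the responses of 0.29 (95% interval 0.02 to 0.56, unadjusted p = 0.0346, adjusted p = 0.645). For Cidec the interval of that difference ran from -0.74 to 0.83 and for G0s2 from -0.90 to 0.93 on the log2 scale, and differences within these bounds were not excluded by these arrays. It was narrower for Plin2 (-0.25 to 0.26) and Pnpla2 (-0.30 to 0.34).

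Adeno-Cre was then set against Adeno-GFP within each diet. By the study's design this sets p53 depletion against its control, and here p53 and viral cargo cannot be told apart. None of the 9 passed in limma in fasted livers, where 2.75% of all genes were called. The count was also 0 in fed livers, where 1.49% were called, and 0 for the average over diets, where 5.59% were called. At an unadjusted limma p under 0.05 the members numbered 2 in fasted livers, 0 in fed livers and 4 in the average, against 16.7%, 12.4% and 19.5% of all genes. With a trended and robust variance prior in limma, 1 member passed in fasted livers and 1 in the average.

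Plin3 came closest in fasted livers, with a mean log2 level of 7.51 ± 0.12 (SD, n = 3) in Adeno-Cre and 7.16 ± 0.11 in Adeno-GFP livers. All 3 Adeno-Cre fasted livers were above all 3 Adeno-GFP fasted livers. The log2 difference was 0.35 (95% interval 0.16 to 0.54, limma adjusted p = 0.0553). Among 7 other settings this difference passed in 2, with the lowest limma adjusted p at 0.0230 and the highest at 0.174. It passed in the absence of Adeno-Cre fasted replicate 3 (0.41, adjusted p = 0.0341) or of Adeno-GFP fasted replicate 1 (0.41, adjusted p = 0.0477), and not in the absence of any of the other 10. In fed livers the means were 7.21 ± 0.04 in Adeno-Cre and 7.15 ± 0.09 in Adeno-GFP livers, with a log2 difference of 0.06 (95% interval -0.13 to 0.25). Averaged over diets, the Plin3 log2 difference was 0.20 (95% interval 0.07 to 0.34, unadjusted p = 0.00615, limma adjusted p = 0.0810). That averaged difference passed in 1 of 6 other settings (adjusted p = 0.0354). The Adeno-Cre fasted livers enter both the comparison of injections in fasted livers and that of fasting after Adeno-Cre.

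The remaining coat genes had small log2 differences of Adeno-Cre minus Adeno-GFP that missed the threshold. For Plin2 they were 0.18 in fasted (95% interval 0.0047 to 0.36) and 0.18 in fed livers (95% interval -0.0013 to 0.35). In the average over diets the Plin2 difference was 0.18 (95% interval 0.05 to 0.31, unadjusted p = 0.00895, limma adjusted p = 0.101), and it passed in 2 of 6 other settings, with dim probe sets removed (adjusted p = 0.0440) and with the trended and robust prior (adjusted p = 0.0285). For Plin5 the differences were 0.18 in fasted and 0.15 in fed livers, and for Plin4 0.06 in fasted and 0.22 in fed livers. Averaged over diets, the Plin5 difference was 0.17 (95% interval 0.0026 to 0.33, unadjusted p = 0.0471, limma adjusted p = 0.249). In fasted livers the groups were apart for Plin3 and Plin5 with Adeno-Cre higher, as for 9.96% of all genes. In fed livers they were apart for Plin2 with Adeno-Cre higher (8.4% of all genes) and for Pnpla2 with Adeno-Cre lower (11.5% of all genes). Cidec had 7.74 ± 0.67 in Adeno-Cre fasted against 7.51 ± 0.16 in Adeno-GFP fasted livers, and 6.68 ± 0.16 in Adeno-Cre fed against 6.49 ± 0.23 in Adeno-GFP fed livers (log2 levels, SD, n = 3). Its log2 differences were 0.23 in fasted (95% interval -0.32 to 0.79) and 0.19 in fed livers (95% interval -0.37 to 0.74).

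Both lipase genes had log2 differences below 0 that missed the threshold in both diets. For Pnpla2 the difference was -0.17 in fasted (95% interval -0.39 to 0.06) and -0.19 in fed livers (95% interval -0.41 to 0.04). Averaged over diets, the Pnpla2 difference was -0.18 (95% interval -0.34 to -0.02, unadjusted p = 0.0323, limma adjusted p = 0.205). For Pnpla3 it was -0.28 in fasted (95% interval -0.62 to 0.05) and -0.17 in fed livers (95% interval -0.50 to 0.17). G0s2 averaged 9.45 ± 0.60 in Adeno-Cre fasted against 9.44 ± 0.59 in Adeno-GFP fasted livers, and 8.65 ± 0.18 in Adeno-Cre fed against 8.66 ± 0.18 in Adeno-GFP fed livers (log2 levels, SD, n = 3). Its 95% interval reached from -0.64 to 0.65 in fasted livers, so changes within those bounds were not excluded. Cidea differed by 0.01 in fasted and by -0.07 in fed livers on the log2 scale.

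Adeno-Cre fasted replicate 3 stood apart from its group in this set of genes. It lay 0.78 below the group mean for Cidec and 0.69 below it for G0s2 on the log2 scale. It was below the mean for 7 of the 9 genes, as Adeno-Cre fed replicate 1 was in its own group. In the same liver, 22 of 24 measured targets of PPARA, the fatty acid sensor that drives fasting oxidation, were below their group mean, with a median deviation of -0.15. The median deviation of the lipogenesis genes in that liver was -0.08, and that of all genes was 0.02. Without this array, Cidec was called higher in Adeno-Cre than Adeno-GFP fasted livers (log2 difference 0.62, limma adjusted p = 0.0417), as was Plin3. In the average over diets, Cidec (0.40, adjusted p = 0.0342), Plin2 (0.22, adjusted p = 0.0388) and Plin3 (0.23, adjusted p = 0.0456) were then called higher after Adeno-Cre. Its absence also gave G0s2 a call with fasting after Adeno-Cre (1.14, adjusted p = 0.0404). This array was singled out from these same values, so the calls gained without it are no separate support for a difference. Without Adeno-Cre fasted replicate 1 or 2 instead, the Cidec log2 difference of Adeno-Cre minus Adeno-GFP in fasted livers was 0.06 or 0.02 (limma adjusted p = 0.954 or 0.989). Adeno-Cre fasted replicate 3 is kept in all values given without such a remark.

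**Figure D3:**
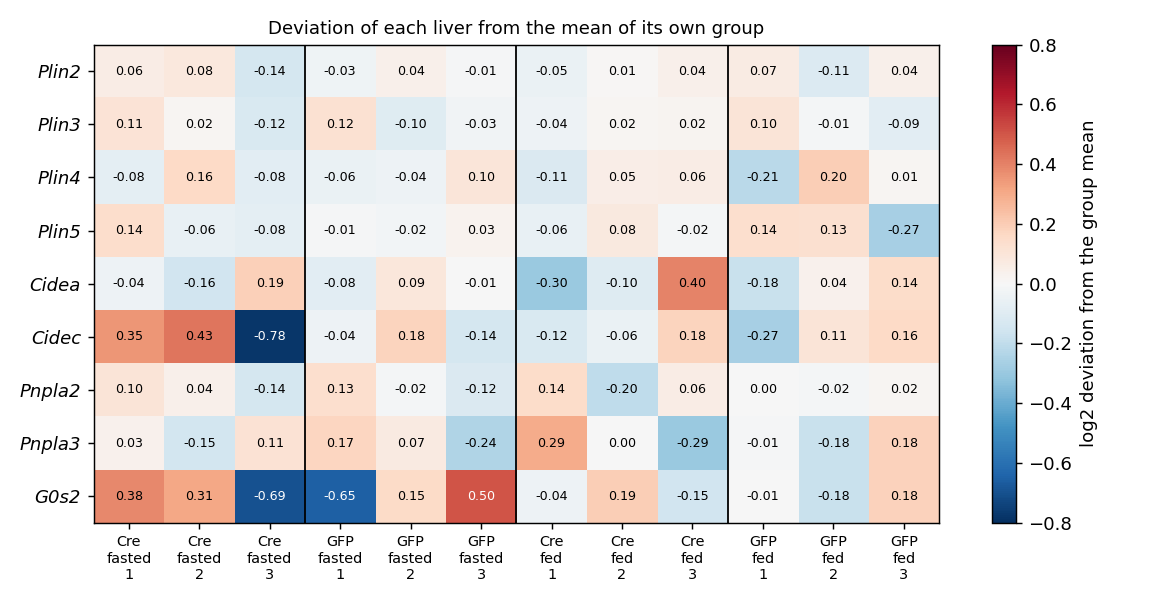
Deviation of each of the 12 arrays (columns, by group and replicate) from the mean of its own group on the log2 scale, for the 9 measured genes (rows), with the value in each cell and colour from below (blue) to above (red) the mean. Cidec and G0s2 are lowest in Adeno-Cre fasted replicate 3 (-0.78 and -0.69), and G0s2 is also low in Adeno-GFP fasted replicate 1 (-0.65).

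Genes around the droplet were counted from lists of related functions. Of 25 measured genes of droplet assembly and other lipolysis, 3 rose and 1 fell with fasting averaged over injections, with a list median of 0.03 on the log2 scale. Of all genes, 4.02% were called higher and 4.32% lower in this comparison. Hsd17b11, a short-chain dehydrogenase located on droplets, rose by 0.71 (SE 0.08, limma adjusted p = 0.000229), with means of 11.21 ± 0.16 in Adeno-Cre fasted, 10.84 ± 0.10 in Adeno-GFP fasted, 10.39 ± 0.08 in Adeno-Cre fed and 10.23 ± 0.18 in Adeno-GFP fed livers (log2 levels, SD, n = 3). Aup1, a droplet protein that recruits ubiquitin-conjugating enzymes, rose by 0.23, and Hsd17b13, a liver droplet enzyme, by 0.22 on the log2 scale. Ces1g, a carboxylesterase, fell by 0.53 on the log2 scale. Bscl2, which encodes seipin of the droplet assembly site, rose by 0.56 on the log2 scale with fasting after Adeno-Cre (limma adjusted p = 0.0368), while its mean log2 levels after Adeno-GFP were 8.08 ± 0.17 in fasted and 8.03 ± 0.01 in fed livers (SD, n = 3). Averaged over injections it was not called (log2 difference 0.30, adjusted p = 0.0565). The lipase partners that were not called included Abhd5, the activator of adipose triglyceride lipase, with a log2 difference of -0.11 (adjusted p = 0.324), and Mgll, the monoglyceride lipase that completes the cleavage, with 0.23 (adjusted p = 0.156). Hilpda, another inhibitor of adipose triglyceride lipase, had a log2 difference of 0.19 (adjusted p = 0.270).

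Of 16 genes of triglyceride synthesis, 5 rose and 0 fell with fasting, with a list median of 0.06. Dgat1, which makes triglyceride from diglyceride, rose by 0.49, and Gpat3, Agpat3 and Gpat4, acyltransferases of earlier steps, rose by 0.89, 0.40 and 0.38 on the log2 scale. Dgat2, the other enzyme of that last step, had a log2 difference of -0.18 (limma adjusted p = 0.119). Of 24 measured PPARA targets, 19 rose and 0 fell, with a list median of 0.48. Cyp4a14 and Cyp4a31, fatty acid hydroxylases, rose by 1.92 and 1.78 on the log2 scale, and Ehhadh of peroxisomal oxidation by 1.17. Acot2, a mitochondrial thioesterase, rose by 0.70. Of 19 measured genes of lipogenesis, 0 rose and 15 fell, with a list median of -0.63. Fatty acid synthase, Fasn, fell by 1.20 on the log2 scale, and Pklr, Scd1 and Me1 fell by 0.98, 0.94 and 0.93.

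**Figure D4:**
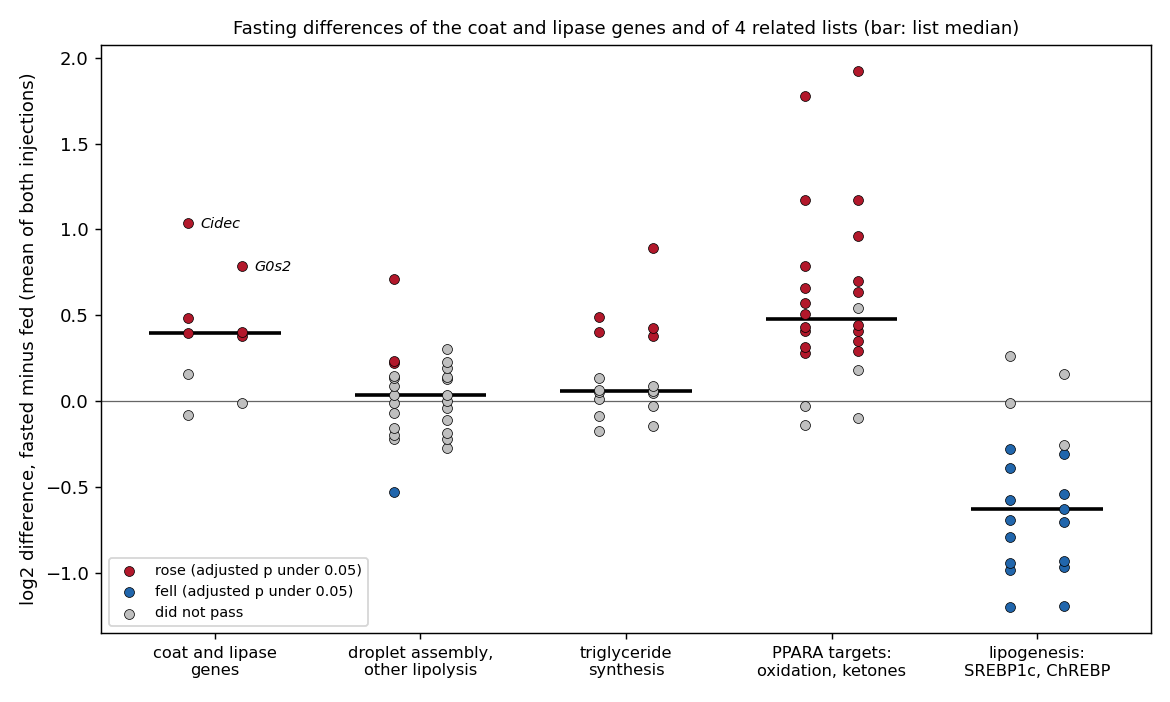
Log2 difference of fasted minus fed averaged over injections (vertical axis) for each measured gene of the droplet coat and lipase set and of 4 related lists (columns), with genes that rose in red, genes that fell in blue, others in grey, and a bar at each median. The set's median of 0.40 lies between those of triglyceride synthesis (0.06) and of PPARA targets (0.48), and lipogenesis lies mostly below 0.

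With Adeno-Cre, in either diet 0 genes of droplet assembly, triglyceride synthesis or the PPARA list were called by limma, and those at an unadjusted p under 0.05 numbered 6 of 25, 3 of 16 and 5 of 24 in fasted livers and 3, 1 and 6 in fed livers, in that order of lists. Of all genes, 16.7% in fasted and 12.4% in fed livers had such a p. Of the 19 lipogenesis genes, 8 had one in fasted and 9 in fed livers, 1 was called in each diet, and in the average over diets 1 rose and 3 fell, where 5.59% of all genes were called. Among them, Me1, malic enzyme, was 0.56 higher in Adeno-Cre than Adeno-GFP fasted livers, and Srebf1, which encodes the transcription factor SREBP1, fell by 0.53 in Adeno-Cre fed livers on the log2 scale. In the average over diets, Hsd17b13 rose by 0.18 (adjusted p = 0.0481), Acot2 by 0.40 and Me1 by 0.38, while Acss2 fell by 0.35, Elovl5 by 0.33 and Insig1 by 0.32 on the log2 scale.

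Of the genes compared, the 3 whose profiles over the 12 arrays were most like that of Cidec were Gpat3, Pdk4 and Ribc1. Each profile was centred on its own mean, and 11604 genes outside the set, with a mean at or above the lowest array median and no predicted or clone-type symbol, were compared by the root mean square difference, which was 0.25 for Gpat3, 0.26 for Pdk4 and 0.27 for Ribc1, where the Cidec profile itself has a root mean square of 0.61 (all log2). Their fasting log2 differences were 0.89, 1.17 and 0.91. Pdk4 encodes a kinase that shuts off pyruvate oxidation and is a PPARA target.

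Promoter windows from RefSeq were used for 9 of the 10 genes, in 11 windows of 300 bases. Cidea was left out because windows on chromosome 18, where it lies, were not taken for the set. Besides the E-box in Plin2 and the p53 decamer in Cidec, no window matched a motif. The others searched, on both strands, were the direct repeat DR1 that PPAR and RXR bind (0.0396% of all windows hold its consensus), a relaxed form of DR1 with 1 base left free in each repeat (0.381%) and the palindromic glucocorticoid element (0.475%). The absence of these letters from these windows says nothing of sites elsewhere.

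Markers of the cell types that a piece of liver can hold were read beside these values. Mean log2 levels of 7 hepatocyte markers were 12.59 to 12.66 in Adeno-Cre fasted, 12.70 to 12.76 in Adeno-GFP fasted, 12.63 to 12.67 in Adeno-Cre fed and 12.71 to 12.74 in Adeno-GFP fed livers. Their median log2 difference of Adeno-Cre minus Adeno-GFP in the average over diets was -0.09, with 0 called in limma (5.59% of all genes) and 3 at an unadjusted p under 0.05 (19.5% of all genes). Of 7 adipocyte markers, 0 were called in any comparison by limma (0 or 1 at an unadjusted p under 0.05). Adipoq (5.59 to 6.12), Lep (5.01 to 5.92) and Cidea, itself a gene of the set, were under the lowest array median on 12 of 12 arrays, whereas Fabp4 (10.23 to 10.67) and Lipe (6.56 to 6.91) were above it on every array. The mean of the adipocyte list was 6.55 to 6.68 in Adeno-Cre fasted, 6.55 to 6.73 in Adeno-GFP fasted, 6.50 to 6.70 in Adeno-Cre fed and 6.55 to 6.70 in Adeno-GFP fed livers.

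Stellate cells, which store lipid themselves, had list means over 10 genes of 7.69 to 7.92 in Adeno-Cre fasted, 8.01 to 8.06 in Adeno-GFP fasted, 7.95 to 8.02 in Adeno-Cre fed and 8.19 to 8.20 in Adeno-GFP fed livers. Of the 10 genes, 2 fell with fasting averaged over injections, with 4 at an unadjusted limma p under 0.05. With Adeno-Cre averaged over diets 2 fell and 7 had such a p, with a median log2 difference of -0.20. Kupffer cell markers, 8 in number, had a median log2 difference of -0.41 for Adeno-Cre minus Adeno-GFP in fasted livers and 0 calls in limma (1 at an unadjusted p under 0.05), with list means of 7.16 to 7.71 in Adeno-Cre and 7.55 to 8.27 in Adeno-GFP livers. Of 8 endothelial markers, 1 fell with fasting in the average over injections. Their median log2 difference of Adeno-Cre minus Adeno-GFP in fed livers was -0.31, with 0 called in limma and 5 at an unadjusted p under 0.05, and list means were 8.38 to 8.82 in Adeno-Cre fed and 8.90 to 8.99 in Adeno-GFP fed livers. Of 4 cholangiocyte markers, 1 fell with Adeno-Cre in the average over diets, and list means were 6.08 to 6.37 in Adeno-Cre fasted and 6.43 to 6.45 in Adeno-GFP fasted livers. Of 6 neutrophil and T cell markers, 0 were called in limma in either average, with 0 at an unadjusted p under 0.05. For all genes, 5.59% were called with Adeno-Cre averaged over diets and 4.32% were called lower with fasting averaged over injections. An unadjusted limma p under 0.05 for Adeno-Cre was held by 16.7% of all genes in fasted livers, 12.4% in fed livers and 19.5% in the average. The share of all genes with such a p for fasting is not given here. Marker counts at that p for fasting therefore cannot be set against all genes. The part of these cells in the values above was not tested.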

How the data were processed

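The authors deposited a log2 level for each probe set, computed with RMA (background correction, equalised array distributions, summary over probes), per the submitters' processing notes. The version of RMA, and any genome build, is not given in the sources used here. RNA of integrity number above 7 was labelled from 200 ng, per the labels' protocols. Of 41345 probe sets, 23521 were annotated with exactly 1 gene, which gave 22180 genes. RMA removes shifts common to all genes and compresses dim probe sets, and no detection call was given.

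A single model in limma 3.58.1, run under R 4.3.3, took all 12 arrays with 4 group means and eBayes without trend, leaving 8 residual degrees of freedom. Comparisons were contrasts of those means, with Benjamini-Hochberg adjustment over all genes and a threshold of 0.05. The fit was tested on simulated data. Named beside the 10 genes are, per list and comparison, up to 4 called genes with the smallest p, and the 3 genes most like a called gene whose log2 difference reached 1. Abhd5, Mgll, Hilpda and Dgat2 were named after their values were seen. Members and lists were chosen with earlier results of these data known. Alternatives left out dim probe sets, repeated quantile normalization, took the replicate number as a block, restricted the fit to the groups of a comparison, set a trended and robust prior, averaged a gene's probe sets, tested all probe sets, or omitted 1 array at a time. Promoters were scanned and figures drawn under Python 3.11.15, using numpy 2.4.6, pandas 2.3.3 and matplotlib 3.10.9.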

Additional observations from a re-analysis of the deposited data

How the results depend on the processing

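The fasting calls averaged over injections of Plin2, Plin4, Plin5, Cidec and Pnpla2 held in all 6 other settings run for that average and without each array, and that of G0s2 held in 2 of 6. When dim probe sets were removed, the members called numbered 1 for Adeno-Cre in fasted livers, 2 in the average over diets, 5 with fasting after Adeno-Cre and 5 with fasting after Adeno-GFP. That setting left out Cidea and Pnpla3, whose means were under the lowest array median. With a trended and robust prior they numbered 1 in fasted livers and 1 in the average over diets. With fasting after Adeno-Cre they numbered 1 with the replicate block, 0 with the groups compared only and 0 with all probe sets tested, which also gave 0 with fasting after Adeno-GFP. Whether replicate numbers pair the samples was not settled by these values. With group means subtracted, correlations of same-numbered arrays ran from -0.09 to 0.15. Among arrays of other groups, 6 of 12 arrays were closest to one of their own number. Settings restricted to the groups compared were not run for averages or the interaction.

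Over all genes, calls in the order Adeno-Cre fasted, Adeno-Cre fed, fasting after Adeno-Cre and fasting after Adeno-GFP numbered 609, 331, 592 and 682. They became 918, 555, 983 and 1091 once dim probe sets were removed, 320, 145, 212 and 394 with the groups compared only, and 939, 539, 935 and 1038 with the trended and robust prior. With all probe sets tested they were 91 in fed livers, 332 with fasting after Adeno-Cre and 388 after Adeno-GFP. These counts are not over the same number of features. Fewer than 22180 genes were tested once dim probe sets were removed, and 41345 probe sets when all were tested. The 1 interaction call became 0 with repeated quantile normalization, with the replicate block and with all probe sets tested.

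Leaving out each array, members called ranged from 0 to 2 for Adeno-Cre in fasted livers, 0 to 0 in fed livers, 0 to 3 in the average, 0 to 4 with fasting after Adeno-Cre, 0 to 4 after Adeno-GFP, 5 to 6 in the average and 0 to 0 for the interaction. All genes called ranged, in the same order, from 355 to 800, 31 to 362, 824 to 1353, 207 to 713, 275 to 720, 1239 to 1790 and 0 to 1.

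Log2 differences that changed sign were all uncalled, and the cause was not tested. For Adeno-Cre in G0s2 these were -0.034 (quantiles repeated) and -0.019 (probe sets averaged) in fasted livers and 0.0019 (probe sets averaged) in fed livers. For the interaction with quantiles repeated they were -0.024 for Plin2, -0.017 for Plin5, -0.0051 for Cidec, -0.017 for Pnpla2 and -0.017 for G0s2, and -0.021 for G0s2 with probe sets averaged. Leaving out arrays, Adeno-Cre differences spanned 0 in fasted livers for Plin4 (-0.023 to 0.11), Cidea (-0.085 to 0.090) and G0s2 (-0.32 to 0.35), in fed livers for Cidea (-0.27 to 0.081) and G0s2 (-0.10 to 0.084), and in the average for Cidea (-0.13 to 0.046) and G0s2 (-0.16 to 0.17). Fasting differences spanned 0 after Adeno-Cre for Cidea (-0.19 to 0.16) and Pnpla3 (-0.21 to 0.080), after Adeno-GFP for Plin3 (-0.051 to 0.062) and Pnpla3 (-0.041 to 0.17), and in the average for Cidea (-0.15 to 0.019) and Pnpla3 (-0.084 to 0.063). The interaction spanned 0 for Plin2 (-0.036 to 0.077), Plin5 (-0.042 to 0.16), Cidea (-0.069 to 0.28), Cidec (-0.17 to 0.43), Pnpla2 (-0.079 to 0.094), Pnpla3 (-0.26 to 0.034) and G0s2 (-0.31 to 0.36). Cidea on 12 arrays and Pnpla3 on 8 lay under the lowest array median, which limits what their values can show.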
